A study of Rattus norvegicus with 6 samples.

Results

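The mammalian circadian clock is a feedback loop of transcription that runs in nearly every cell, heart muscle cells included. CLOCK and BMAL1, the product of Arntl, bind E-box elements as a pair and switch on the Per, Cry, Nr1d1, Nr1d2 and Dbp genes. PER and CRY proteins return to the nucleus and repress CLOCK and BMAL1, while the receptors REV-ERB alpha and REV-ERB beta, encoded by Nr1d1 and Nr1d2, compete with ROR receptors for RORE elements and repress Arntl. DBP acts on D-box elements, and in the heart the loop is known for rhythms in metabolism and ion channel expression.

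The 10 clock genes described here are the rows of the deposited table of 34510 genes whose symbol is Arntl, Clock, Per1, Per2, Per3, Cry1, Cry2, Nr1d1, Nr1d2 or Dbp. Each symbol had a single row, and all 10 genes were among the 14808 tested. Poly(A) RNA of cultured neonatal rat ventricular cardiomyocytes, muscle cells isolated from the heart ventricles of newborn rats, was sequenced in 6 libraries. In the 3 Trim28 libraries the cells had received, per the series' design text, an adenovirus that expresses TRIM28, a corepressor that acts on chromatin through zinc finger proteins. The other 3 libraries are labelled Bgal, and the labels do not say what this name stands for or which virus these cells received. Neither strain nor age in days, viral dose, hours after infection, time of day, or any step that sets cultures to a common phase is given for either group, so a change in level and a shift in phase cannot be told apart here. Separate cultures or animals are not stated for the libraries, so p-values cover the spread among these libraries and nothing beyond it, and that spread may be technical.

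The level of Trim28 was 2923, 2890 and 980 FPKM in the Trim28 libraries, against 81.6, 87.8 and 77.6 FPKM in the Bgal libraries. FPKM are fragments scaled to gene length and library total. Reads assigned to genes were between 26146166 and 28298731 in Trim28 libraries and between 28574951 and 34593292 in Bgal libraries. Cardiomyocyte markers were abundant in both groups, with a sum of 24502 to 25937 FPKM over 9 genes in Trim28 libraries and of 19864 to 22264 FPKM in Bgal libraries. Of these 9, 4 rose and 3 fell, among them Myh7, higher 2.20-fold, and Myl2, lower 2.78-fold, both named after their values were seen. The sum therefore does not stand for each of them. The RNA came from whole cultures, so fewer cells of a type and less RNA per cell cannot be told apart.

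The clock genes have short regulatory elements in front of their starts. Matches found in the 250 bases before start sites of the RefSeq genes of build GRCr8 are shown. They are the letters through which members of the loop are known to act on each other. Windows were matched for 9 of the 10 genes, Cry1 having none, with a second start for Clock and for Nr1d1 and the Arntl gene listed as Bmal1. Searched on both strands were the E-box CACGTG, its variant CACGTT, the D-box TTATGTAA or TTACGTAA, and the RORE. The matches do not overlap each other. Each 30-base stretch is printed on the strand of its gene, with the matched element in capitals. The variant in Cry2 and Nr1d1 lies on the opposite strand and therefore reads AACGTG.
Arntl, RORE, chr1:176766298-176766327, plus strand: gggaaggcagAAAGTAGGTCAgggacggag
Per2, E-box variant, chr9:99497038-99497067, minus strand: aacgcgcgcggtCACGTTttccactatgtg
Per2, D-box, chr9:99497167-99497196, minus strand: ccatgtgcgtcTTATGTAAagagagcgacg
Cry2, E-box variant, chr3:98860632-98860661, minus strand: acacatggtgggAACGTGagggggcggggc
Nr1d1, first start, E-box variant, chr10:84231969-84231998, minus strand: cgcatagagctcAACGTGcccgctgctgga
Nr1d1, second start, E-box, chr10:84229628-84229657, minus strand: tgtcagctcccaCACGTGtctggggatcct

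Among all 33469 windows of that length, 0.317% held the RORE, 0.932% a D-box, 4.07% the E-box variant and 5.59% the E-box. The windows of Clock, Per1, Per3, Nr1d2 and Dbp held none of these letters, which says nothing on elements elsewhere. The window of Per2 reaches into its RefSeq gene span, and the E-box variant of Per2 lies within that span. For Per2, the stretch upstream of the RefSeq gene span, chr9:99497070-99497243 on the minus strand, carries the D-box in capitals.
Per2, upstream stretch: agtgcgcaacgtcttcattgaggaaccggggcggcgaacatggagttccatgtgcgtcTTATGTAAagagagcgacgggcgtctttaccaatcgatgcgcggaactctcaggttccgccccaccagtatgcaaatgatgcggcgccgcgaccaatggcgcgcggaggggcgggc

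In the Trim28 libraries, Per1, Per2, Per3 and Cry1 were higher than in the Bgal libraries by 1.18-fold to 1.40-fold, and these 4 rises passed the test. The other 6 clock genes did not pass, and 0 fell. The test was limma on log2(FPKM + 1) over all 14808 tested genes, two-sided, with a Benjamini-Hochberg adjusted p under 0.05. At an unadjusted p under 0.05, 5 members were higher and 3 lower. The share over all genes was not counted for that rule, so these counts do not show whether the clock genes stood out. Limma-voom on recovered reads called 4 members higher and 1 lower, beside 3070 of the 14808 tested genes higher and 3433 lower. The limma rule with the adjusted p called 41.2% of all tested genes, 20.1% as higher and 21.1% as lower. By that rule, 4 of 10 is a share near that of all genes. The median log2 change of the 10 genes was 0.17, against -0.02 over all tested genes, and the median size of the change regardless of sign was 0.24, against 0.23.

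**Figure D1:**
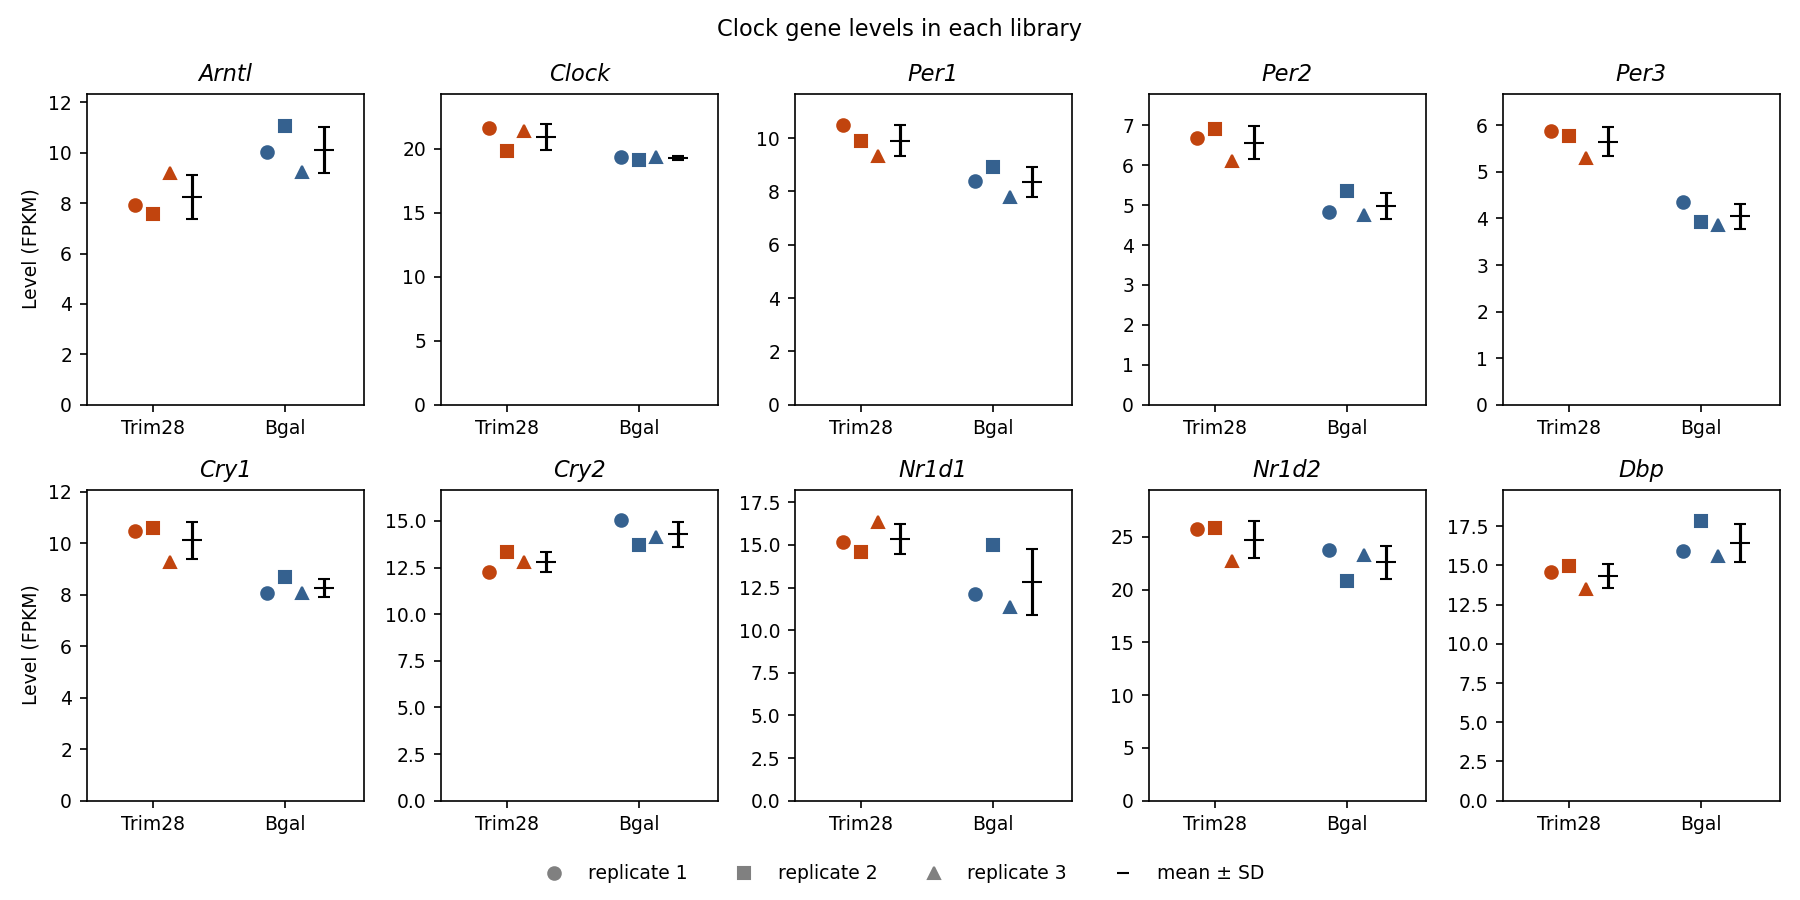
FPKM of each clock gene in the 3 Trim28 libraries (left in each panel) and the 3 Bgal libraries (right), with a marker per replicate and the mean ± SD beside them, each axis starting at 0. The 3 Per genes and Cry1 sit higher in all Trim28 libraries, Arntl, Cry2 and Dbp lower, and Nr1d1 and Nr1d2 overlap between the groups.

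The reads behind a single value ranged from 589, for Arntl in Trim28 replicate 2, to 6480, for Clock in Bgal replicate 1. Per length, Nr1d2 was the most abundant member in both groups and Per3 the least, at means of 24.7 and 5.65 FPKM in Trim28 libraries and of 22.6 and 4.05 FPKM in Bgal libraries. In Trim28 libraries the order of the level was Nr1d2, Clock, Nr1d1, Dbp, Cry2, Cry1, Per1, Arntl, Per2 and Per3. Of these neighbours, Nr1d1 and Dbp overlapped in range, as did Cry1 and Per1. In Bgal libraries the order was Nr1d2, Clock, Dbp, Cry2, Nr1d1, Arntl, Per1, Cry1, Per2 and Per3, with overlap between Cry2 and Nr1d1 and between Per1 and Cry1. Arntl stood above Per1 and Cry1 in every Bgal library and below both in every Trim28 library.

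The activators of the loop were Arntl and Clock. Arntl (ENSRNOG00000014448, chromosome 1, 178039063 to 178137465, plus strand in the deposited table, which names no genome build) had 7.94, 7.55 and 9.21 FPKM in Trim28 libraries, against 10.1, 11.0 and 9.25 FPKM in Bgal libraries. All Trim28 values lay below all Bgal values, though Trim28 replicate 3 and Bgal replicate 3 nearly met. The mean was 1.23-fold lower in Trim28 libraries, at 8.24 ± 0.868 FPKM against 10.1 ± 0.901 FPKM (SD, n = 3 each). The log2 difference of -0.27 (SE 0.09, 95% confidence interval -0.49 to -0.05 before adjustment) did not pass, with a limma adjusted p of 0.0540. That side of the threshold depended on single libraries and on the tool. Adjusted p was 0.0253 without Trim28 replicate 3, 0.0480 without Bgal replicate 3, 0.0448 with the filter of 2 FPKM and 0.0313 in limma-voom, within a range up to 0.153 over 13 alternatives that all kept the sign.

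Clock (ENSRNOG00000002175, chromosome 14, 34446616 to 34502218, plus strand), whose protein pairs with BMAL1, had 21.7, 19.8 and 21.4 FPKM in Trim28 libraries, against 19.3, 19.1 and 19.4 FPKM in Bgal libraries. The groups did not overlap, but the gap between them was smaller than the spread of the Trim28 libraries. The log2 difference was 0.11, with a 95% confidence interval of -0.01 to 0.24, and did not pass (limma adjusted p = 0.121). Npas2, a relative of Clock that can take its place beside BMAL1, belonged to a separate list of clock transcription factors and rose 1.72-fold at a low level, with 1.86, 1.53 and 1.59 FPKM in Trim28 libraries against 1.00, 0.911 and 0.987 FPKM in Bgal libraries (limma adjusted p = 0.0132). Arntl2, the relative of Arntl, fell short of the filter of 0.5 FPKM in 3 libraries and was not tested. Its level was 0.825, 0.572 and 0.401 FPKM in Trim28 libraries, against 0.281, 0.293 and 0.320 FPKM in Bgal libraries.

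The Per genes encode the scaffold of the repressor complex. Per3 (ENSRNOG00000018413, chromosome 5, 168086998 to 168123395, minus strand) showed the largest change of the 10 genes on the log2(FPKM + 1) scale. It had 5.89, 5.78 and 5.29 FPKM in Trim28 libraries, against 4.35, 3.93 and 3.86 FPKM in Bgal libraries. Every Trim28 library lay above every Bgal library. The rise was 1.40-fold, with a log2 change of 0.40 (SE 0.08) and a limma adjusted p of 0.00702.

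Per2 (ENSRNOG00000020254, chromosome 9, 98555169 to 98597359, minus strand), in whose window of 250 bases the E-box variant and the D-box were found, had 6.68, 6.90 and 6.12 FPKM in Trim28 libraries, against 4.82, 5.36 and 4.76 FPKM in Bgal libraries. The groups were again separate. Per2 rose 1.32-fold, with a log2 change of 0.34 (SE 0.08) and a limma adjusted p of 0.0129. Per3 and Per2 passed under all 13 alternatives, with adjusted p-values up to 0.0295 for Per3 and up to 0.0467 for Per2.

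Per1 (ENSRNOG00000007387, chromosome 10, 55687050 to 55695994, plus strand), which in many cells also responds quickly to outside signals, had 10.5, 9.90 and 9.34 FPKM in Trim28 libraries, against 8.40, 8.91 and 7.80 FPKM in Bgal libraries. The lowest Trim28 library lay just above the highest Bgal library. Per1 rose 1.18-fold (log2 change 0.22, SE 0.07, limma adjusted p = 0.0482). Among the alternatives that lost the call were those without Trim28 replicate 1 (0.148) or 2 (0.107), without Bgal replicate 1 (0.108) or 3 (0.133), with no filter (0.0728) and with no intensity trend (0.0521).

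The cryptochromes, which repress CLOCK and BMAL1 together with the PER proteins, had differences of opposite sign. Cry1 (ENSRNOG00000006622, chromosome 7, 24534615 to 24634097, plus strand) had 10.5, 10.6 and 9.27 FPKM in Trim28 libraries, against 8.08, 8.67 and 8.06 FPKM in Bgal libraries. All Trim28 values were higher, and Cry1 rose 1.22-fold (log2 change 0.26, SE 0.07, limma adjusted p = 0.0253). Without Trim28 replicate 1 or 2 its adjusted p was 0.0836 or 0.0819, and without Bgal replicate 1 or 3 it was 0.0786 or 0.0702, so that the call was lost. Cry2 (ENSRNOG00000007478, chromosome 3, 81314149 to 81344110, minus strand) had 12.3, 13.3 and 12.8 FPKM in Trim28 libraries, against 15.0, 13.7 and 14.1 FPKM in Bgal libraries. Its Trim28 values were all lower, by 1.12-fold on the means. The log2 difference was -0.15, with a 95% confidence interval of -0.29 to -0.01 before adjustment, and did not pass (limma adjusted p = 0.0868).

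The REV-ERB receptors form the arm that represses Arntl. Nr1d1 (ENSRNOG00000009329, chromosome 10, 86683875 to 86690815, minus strand) had 15.2, 14.6 and 16.3 FPKM in Trim28 libraries, against 12.1, 15.0 and 11.3 FPKM in Bgal libraries. The groups overlapped, since Bgal replicate 2 stood among the Trim28 libraries. The log2 difference of 0.25 (SE 0.10, 95% confidence interval 0.01 to 0.49 before adjustment) did not pass, with a limma adjusted p of 0.0861. Without Bgal replicate 2 the difference was 0.36 and passed (0.0116), within a range up to 0.228 over the alternatives. Nr1d1 overlaps Thra, a thyroid hormone receptor gene on the opposite strand, by 1059 bases in the deposited table. Reads of both genes in that stretch cannot be told apart unless the counting used strand, which no source used here states. Thra averaged 20.8 FPKM in Trim28 libraries and 23.9 FPKM in Bgal libraries.

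Nr1d2 (ENSRNOG00000046912, chromosome 15, 8730871 to 8757165, plus strand) had 25.7, 25.8 and 22.7 FPKM in Trim28 libraries, against 23.8, 20.8 and 23.3 FPKM in Bgal libraries. The groups overlapped. At a log2 difference of 0.13 (95% confidence interval -0.05 to 0.30) it did not pass, with a limma adjusted p of 0.214. Among the genes whose log2(FPKM + 1) was most like that of Nr1d1 over the 6 libraries were Auts2, Arl6ip5, Slc38a7 and Rps6kc1, with Pearson's r of 0.983 to 0.994. They were picked for the highest r among the tested genes, placeholder names left out, so its size says nothing on a link to Nr1d1. None of them passed, with limma adjusted p-values of 0.0780 to 0.203. Since they were picked for likeness to Nr1d1, which did not pass either, this adds no further result.

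Dbp (ENSRNOG00000021027, chromosome 1, 101687855 to 101692846, plus strand), the output factor of the PAR bZIP family, had 14.6, 15.0 and 13.5 FPKM in Trim28 libraries, against 15.9, 17.8 and 15.6 FPKM in Bgal libraries. All Trim28 values were lower, by 1.15-fold on the means. The log2 difference of -0.18 (SE 0.07, 95% confidence interval -0.35 to -0.02 before adjustment) did not pass, with a limma adjusted p of 0.0709. Its sign was opposite to that of the Per genes, which are also E-box genes. Dbp was under the threshold in 0 of 13 alternatives, with adjusted p-values from 0.0553 to 0.181.

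**Figure D2:**
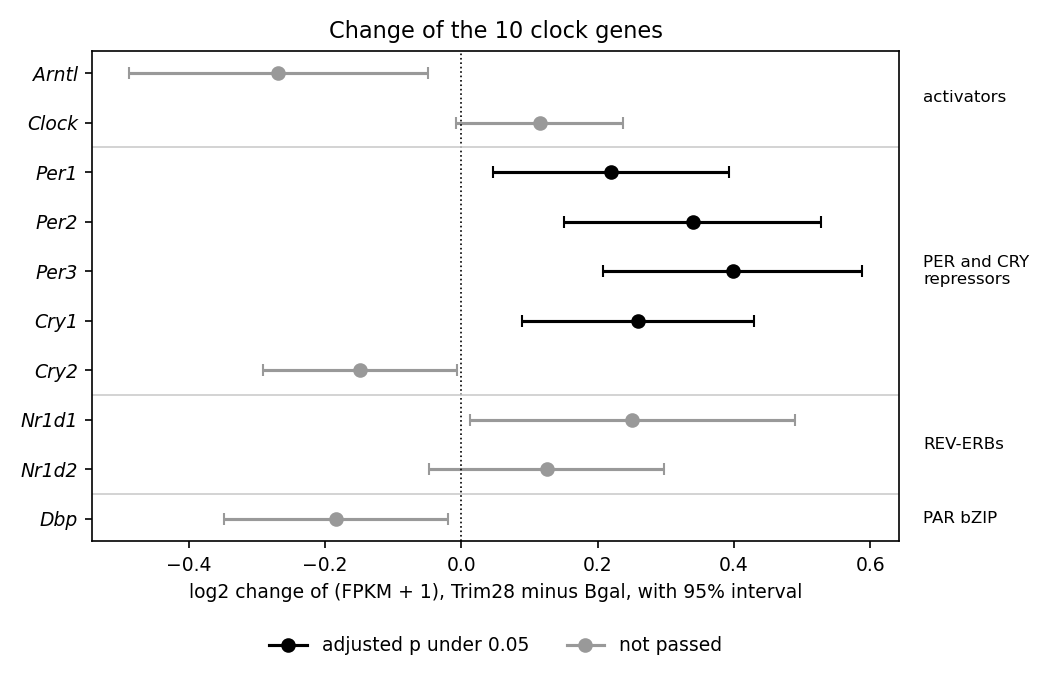
Log2 change of (FPKM + 1) of each clock gene, Trim28 minus Bgal, with its unadjusted 95% confidence interval, grouped by role; black points had a limma adjusted p under 0.05. Per1, Per2, Per3 and Cry1 lie right of 0 and passed, Arntl, Cry2 and Dbp lie left of 0 and did not pass.

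Of the 10 genes, 8 had groups that did not overlap, 5 with higher and 3 with lower values in Trim28 libraries. Over all tested genes, 53.8% did not overlap, 26.0% higher and 27.7% lower. The libraries did not contribute evenly. Trim28 replicate 3, which had the least Trim28, was the Trim28 library nearest to the Bgal mean for 6 of the 10 members, namely Arntl, Per1, Per2, Per3, Cry1 and Nr1d2, and for 40.0% of all tested genes. Without it, 5 members passed, 4 higher and Arntl lower, beside 5643 of the 14808 tested genes. Bgal replicate 2 was the Bgal library nearest to the Trim28 mean for 5 of the 10 members, Per1, Per2, Cry1, Cry2 and Nr1d1, and for 38.8% of all tested genes. It was the highest Bgal library for Arntl, Per1, Per2, Cry1, Nr1d1 and Dbp, which is 6 of 10, and for 35.9% of all tested genes. Without Trim28 replicate 1, without Trim28 replicate 2 or without Bgal replicate 1, 2 members passed, against 4 with all libraries. Calls over all tested genes then numbered 4818, 4918 and 4783, against 6097. Without Bgal replicate 2, Per1, Per2, Per3, Cry1 and Nr1d1 passed. Leaving out Bgal replicate 3, the members that passed were Arntl, Per2 and Per3.

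Ratios within a library compare members with each other whatever the library total, and were not tested. The log2 ratio of Arntl to Per2 was 0.25, 0.13 and 0.59 in Trim28 libraries, against 1.06, 1.04 and 0.96 in Bgal libraries, a mean difference of -0.70. Arntl to Nr1d1 gave log2 ratios of -0.93, -0.95 and -0.83 in Trim28 libraries, against -0.27, -0.44 and -0.29 in Bgal libraries, a mean difference of -0.57. For both pairs the groups were separate, with Arntl lower relative to Per2 and to Nr1d1 in every Trim28 library than in any Bgal library. Since Arntl was lower and Per2 higher in every Trim28 library, their ratio had to separate and adds no further result. Neither Arntl nor Nr1d1 passed the test on its own.

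Cry1 to Cry2 stood at log2 ratios of -0.23, -0.33 and -0.47 in Trim28 libraries, against -0.89, -0.66 and -0.81 in Bgal libraries. Per1 to Per2 stood at 0.65, 0.52 and 0.61 in Trim28 libraries, against 0.80, 0.73 and 0.71 in Bgal libraries. Neither pair overlapped between the groups, and the mean difference was 0.45 for the cryptochromes and -0.15 for the Per pair. For the cryptochromes this separation follows from their values above, Cry1 being higher and Cry2 lower in every Trim28 library. The Nr1d1 to Nr1d2 ratio overlapped, with means of -0.69 ± 0.19 in Trim28 libraries and -0.83 ± 0.31 in Bgal libraries (SD, n = 3 each).

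**Figure D3:**
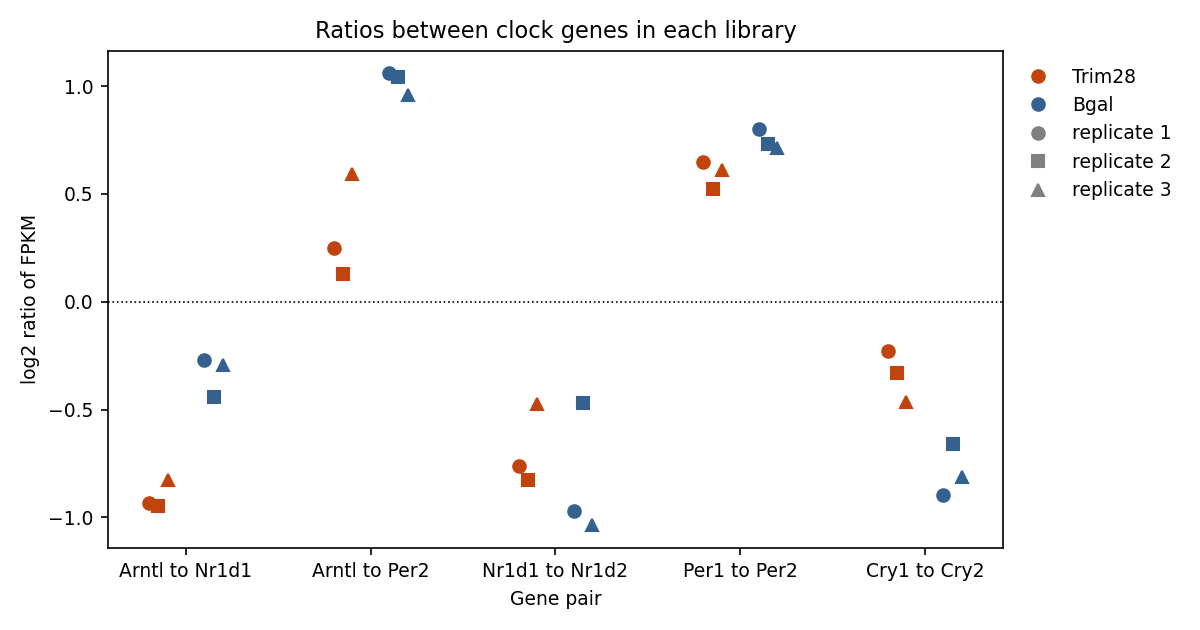
Log2 ratio of the FPKM of pairs of clock genes in each library, Trim28 libraries left of Bgal libraries for each pair. The Arntl to Nr1d1 and Arntl to Per2 ratios are lower and the Cry1 to Cry2 ratio higher in all Trim28 libraries, and the Nr1d1 to Nr1d2 ratio overlaps.

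Further genes of the clock were counted in 3 lists. Of 44 symbols, 43 were found, Sirt1 was not analysed here, and 37 were tested, of which 8 rose and 8 fell. That is 16 of 37, beside the 41.2% of all tested genes called. Their median log2 change was 0.01.

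Among the other clock transcription factors, 2 of 7 tested rose and 0 fell in limma, 0 also at an unadjusted p under 0.05 and in limma-voom, with a median log2 change of 0.11. The genes that rose were Npas2 and Nfil3, whose protein represses through the D-box on which DBP acts. Nfil3 had 16.2, 16.5 and 11.3 FPKM in Trim28 libraries, against 8.09, 9.80 and 8.46 FPKM in Bgal libraries. All Trim28 values were higher, Trim28 replicate 3 least so, and the rise was 1.67-fold (log2 change 0.66, limma adjusted p = 0.00905). Tef, a relative of Dbp, averaged 18.1 ± 1.65 FPKM in Trim28 libraries and 16.7 ± 1.02 FPKM in Bgal libraries and did not pass (limma adjusted p = 0.308).

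The E-box repressors Bhlhe40 and Bhlhe41 did not pass, with log2 differences of 0.19 and -0.06. Bhlhe40 passed without Bgal replicate 2 (adjusted p = 0.0479), while its highest value over the alternatives was 0.274. Ciart, a repressor of CLOCK and BMAL1, averaged 2.41 ± 0.138 FPKM in Trim28 libraries and 2.55 ± 0.0363 FPKM in Bgal libraries (SD, n = 3 each, limma adjusted p = 0.633). Hlf and Rorb, at 0.504 FPKM or less in every library, were not tested.

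Among 19 tested modifiers and partners of clock proteins, 4 rose and 6 fell, with a median log2 change of -0.07. Csnk1d, a casein kinase that phosphorylates PER proteins, rose 1.22-fold and averaged 53.0 ± 1.31 FPKM in Trim28 libraries and 43.3 ± 2.67 FPKM in Bgal libraries. Csnk2a1, a catalytic subunit of casein kinase 2, fell 1.47-fold and averaged 71.8 ± 2.80 FPKM in Trim28 libraries and 106 ± 5.44 FPKM in Bgal libraries. Gsk3b, a kinase with CRY and REV-ERB proteins among its substrates, fell 1.18-fold.

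Fbxw7, a ubiquitin ligase subunit, rose 1.49-fold. Nono and Sfpq, paired RNA-binding proteins found in complexes with PER proteins, fell 1.24-fold and 1.27-fold. Sfpq had 55.8, 56.5 and 52.4 FPKM in Trim28 libraries, against 69.6, 69.9 and 69.7 FPKM in Bgal libraries, with no overlap. Limma adjusted p-values of these 6 genes ran from 0.000309 for Csnk2a1 to 0.0123 for Gsk3b.

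Of 11 tested genes known as clock outputs, 2 rose and 2 fell, with a median log2 change of 0.12. Nampt, the rate-limiting enzyme of NAD salvage, had 15.6, 15.1 and 15.9 FPKM in Trim28 libraries, against 29.6, 23.4 and 26.7 FPKM in Bgal libraries. It fell 1.71-fold (log2 change -0.73, limma adjusted p = 0.000645), with the groups far apart. Cdkn1a, a cell cycle inhibitor that also answers to other pathways, fell 1.55-fold. Klf15, a metabolic transcription factor of the heart, rose 1.41-fold, at 9.49, 9.20 and 8.87 FPKM in Trim28 libraries against 5.98, 6.67 and 6.87 FPKM in Bgal libraries.

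Tsc22d3, a glucocorticoid-induced gene, rose 1.21-fold. Pdk4, a kinase that restrains pyruvate oxidation, had 8.95, 7.20 and 5.18 FPKM in Trim28 libraries, against 10.1, 9.24 and 10.3 FPKM in Bgal libraries. It did not pass (log2 difference -0.45, limma adjusted p = 0.0589), but did without Trim28 replicate 1 (adjusted p = 0.0150), with the filter of 2 FPKM (0.0470) and in limma-voom (0.0193). Lonrf3 averaged 1.87 ± 0.215 FPKM in Trim28 libraries and 1.25 ± 0.443 FPKM in Bgal libraries and did not pass (limma adjusted p = 0.114). The 12 genes that rose or fell and are named from these lists passed under every alternative in which they were tested. They were named for the smallest p-values of their lists, so this does not stand for the lists. The genes of these lists that passed but are not named were modifiers or partners, and each lost its call under some alternatives.

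**Figure D4:**
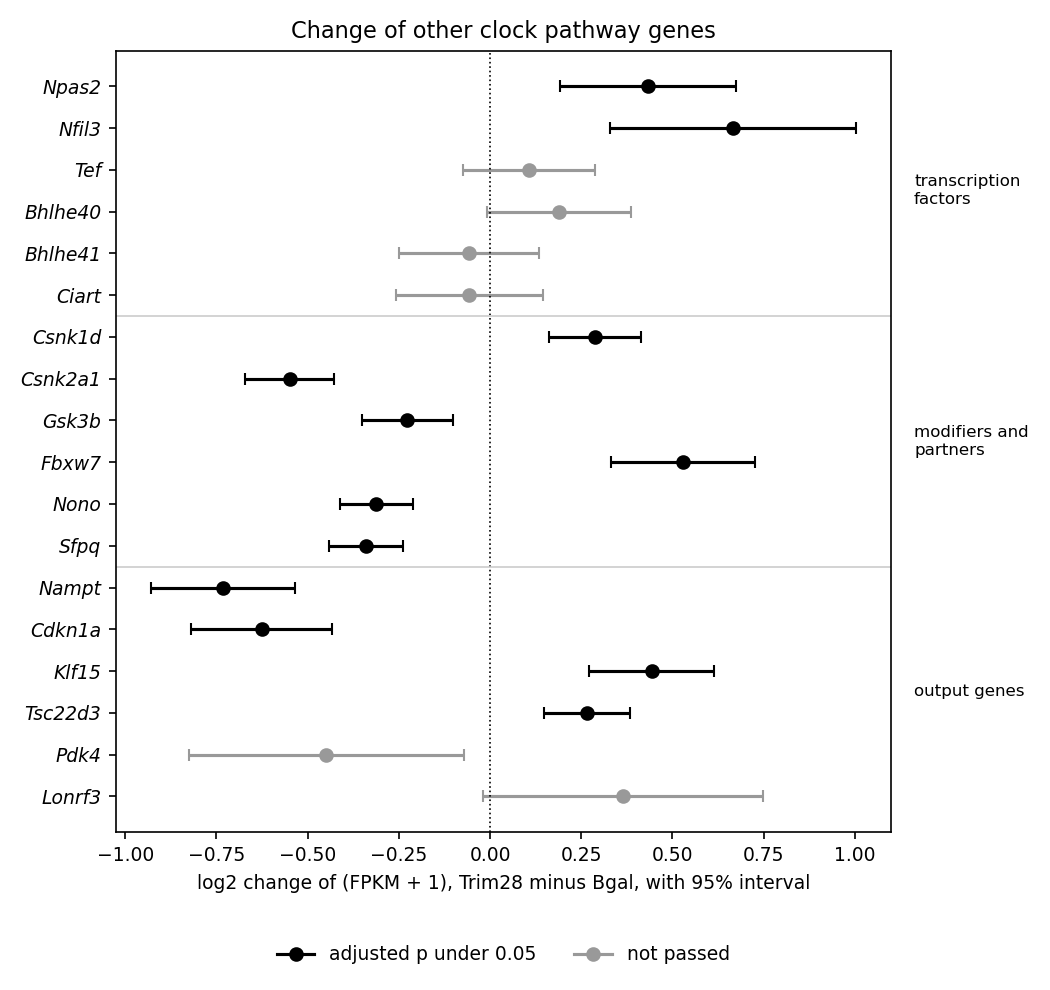
Log2 change of (FPKM + 1), Trim28 minus Bgal, with its unadjusted 95% confidence interval, for the 6 genes with the smallest p-values in each of the 3 lists of other clock genes; black points had a limma adjusted p under 0.05. Nfil3, Npas2, Fbxw7, Klf15, Csnk1d and Tsc22d3 lie right of 0, and Nampt, Cdkn1a, Csnk2a1, Sfpq, Nono and Gsk3b left of 0.

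Genes listed as markers of other cell types differed between the same libraries. The 12 fibroblast and matrix markers summed to 1462 to 1536 FPKM in Trim28 libraries and to 927 to 996 FPKM in Bgal libraries, with 9 of 12 passing as higher and a median log2 change of 0.68. The 10 smooth muscle and mural markers summed to 2444 to 2677 FPKM in Trim28 libraries and to 1451 to 1779 FPKM in Bgal libraries, and of the 9 that reached 0.5 FPKM in libraries of both groups 8 passed as higher, with a median of 0.48. Kcnj8 reached that level in Trim28 libraries alone and is not counted. Most of the smooth muscle and mural sum was Acta2 and Des, so it does not stand for each of these markers. Both are among the 8 that passed. Since the RNA came from whole cultures, neither can be assigned here to mural cells rather than cardiomyocytes. Acta2 had 1284 to 1384 FPKM in Trim28 libraries and 564 to 765 FPKM in Bgal libraries. Des had 798 to 945 FPKM in Trim28 libraries and 663 to 741 FPKM in Bgal libraries. The 8 leukocyte and macrophage markers found summed to 65.4 to 67.2 FPKM in Trim28 libraries and to 27.5 to 28.0 FPKM in Bgal libraries, and all 6 that reached 0.5 FPKM in libraries of both groups passed as higher, with a median of 0.93. Adgre1 reached that level in Trim28 libraries alone and is not counted, and with the filter of 2 FPKM 4 of 4 passed. The 8 endothelial markers found summed to 92.4 to 95.4 FPKM in Trim28 libraries and to 40.3 to 48.6 FPKM in Bgal libraries. Of 4 tested, 3 passed as higher and 1 as lower, with a median of 0.69. Most of that sum was Eng, at 81.0 to 83.7 FPKM in Trim28 libraries and 29.3 to 37.0 FPKM in Bgal libraries. Flt1 and Tek also rose, Kdr fell 1.33-fold, and Cdh5, Emcn, Tie1 and Vwf were not tested. The endothelial sum therefore does not stand for each of its markers. No marker found was at 0 in all libraries. The clock is expressed in each of these cell types, and the part of these differences in the clock gene results was not tested.

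**Figure D5:**
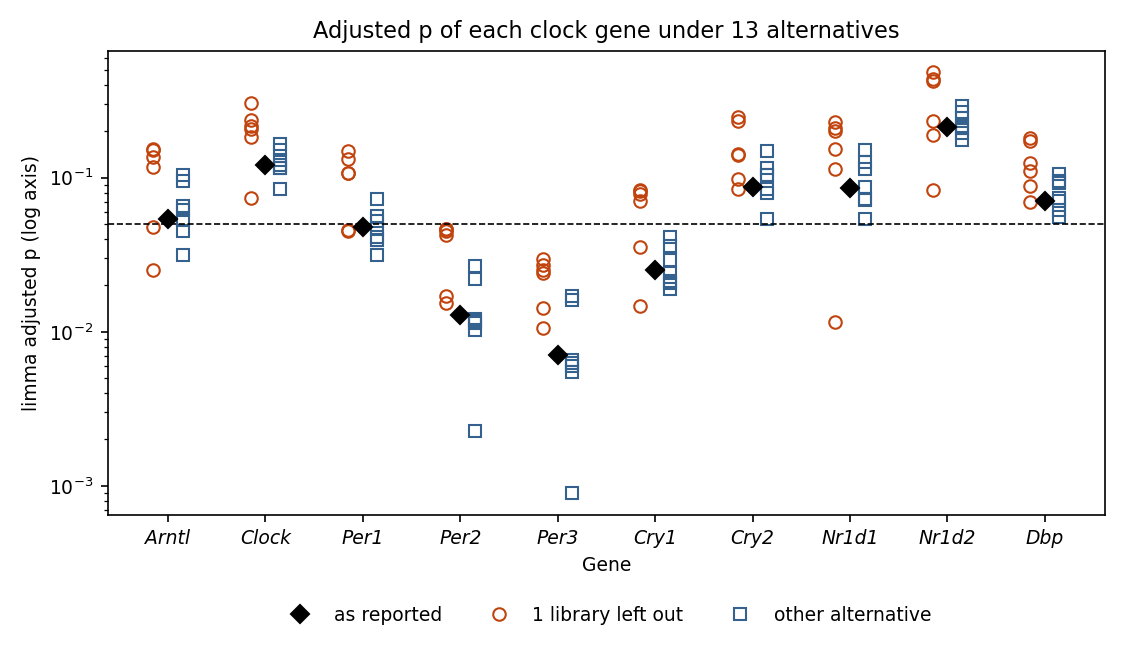
Limma adjusted p of each clock gene on a log axis as reported (diamonds), with 1 library left out (circles) and under the other alternatives (squares); the dashed line marks 0.05. Per2 and Per3 stay below the line throughout, Per1, Cry1, Arntl and Nr1d1 have values on both sides of it, and Clock, Cry2, Nr1d2 and Dbp stay above it.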

How the data were processed

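The deposited table gives FPKM per the file headers, with 1 column per library and no pooling. The authors worked with HISAT2 2.0.5 and DESeq2, per the submitters' processing notes. How reads were counted, with or without strand, and on which genome build is not given in these sources. FPKM divides by gene length and library total, so genes that take many reads lower all others.

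The test took genes that reached 0.5 FPKM in 3 or more libraries, on log2(FPKM + 1) by limma 3.58.1 in R 4.3.3 (intensity trend, two-sided, Benjamini-Hochberg over 14808 genes). This scale understates changes of low genes. Folds are ratios of mean FPKM. FPKM times length fell on whole reads for 100% of values above 0, within 0.01, which gave the reads. Libraries of a group differed beyond sampling noise (chi-square per degree of freedom 6.71 to 18.1). The limma step was tested on simulated data. The members and lists were chosen with earlier results of these data known. Named were the 10 members, Trim28, the 6 genes with the smallest p-values of each clock list, and the 5 genes most like Nr1d1, placeholder names left out. Some genes that this rule or the lists took are not reported here. Alternatives changed the pseudocount, filter, scaling, tool, trend, block or libraries. Promoter sequences are from RefSeq, build GRCr8.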

Additional observations from a re-analysis of the deposited data

How the results depend on the processing

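Under 13 alternatives (pseudocount 0.1, no filter, a filter of 2 FPKM, median-of-ratios scaling, limma-voom on recovered reads, the replicate number as a block, no intensity trend, and leaving out each library), all 10 clock genes kept the sign of their difference. Calls among the members numbered 4, with 2 to 5 when 1 library was left out and 3 to 5 otherwise. Over all tested genes, calls numbered 4783 to 5643 when 1 library was left out, against 6097, and among the other clock genes 12 to 15, against 16. Per2 and Per3 were called throughout. Clock, Cry2, Nr1d2 and Dbp were never called.

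With the replicate block, 5666 genes and 3 members were called, Per1 being lost at an adjusted p of 0.0566, while Bhlhe40 passed at 0.0491. Same-numbered libraries deviated together at correlations of -0.0164, 0.134 and 0.00915. Trim28 replicate 1 correlated best with Bgal replicate 3 (0.0839), while 0.134, for replicate 2 of both groups, was the highest of all pairs. With 3 libraries a group, such correlations cannot settle whether same-numbered libraries were paired, and the labels give only a number. With 3 libraries a group, an exact permutation test of 1 gene cannot go below 0.1.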
